A study of Mus musculus with 39 samples.

Results

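Of the 39 arrays of mouse epididymal adipose tissue, 10 carried a high signal of genes that mark the epididymis, the coiled duct that lies against this fat pad and in which sperm mature. These arrays were chosen by their own values: for each array the median was taken over Crisp1, Lcn5, Adam7 and Cst8 of the log2 signal minus the array's 75th percentile, and an array counted as high above -2 and as low below -6. By this rule 10 arrays were high, 9 were low and 14 lay between. Another 6 arrays, LFC week 3, HFC week 12 and all week 6 arrays but HF20, were left out by the rule. All levels below are on this log2 scale, on which 0 is the 75th percentile of the array, and they compare arrays for one probe and never one probe with another.

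The mice were C57BL/6J, weaned at 3 to 4 weeks of age and divided by diet. LFC was a low-fat control diet with 10% of calories from fat, and HFC a high-fat, high-sucrose diet with 60%. HF5, HF20 and HF75 were HFC with 5, 20 or 75 µg of KAL-1, an ethano-botanical formulation whose composition is not given in the labels. Each diet had 1 array per time point, so that LFC gave 11 arrays, HFC 10, and each KAL-1 dose 6, the latter from week 3 to week 18. The design text speaks of biological replicates, but no diet had a second array under the same time label here. The paper on the liver arrays of this experiment counts weeks from day 14 and treats day 14 and week 0 as the same time. LFC and HFC each had an array under both labels, which are kept here as separate time points. Whether RNA came from single mice or from pools is not given in the sources used here.

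The epididymal epithelium secretes small proteins into the fluid that bathes sperm, and it does so segment by segment. Lipocalins, cystatins, cysteine-rich secretory proteins, beta defensins, ribonuclease-like proteins and protease inhibitors of the WFDC and Kazal families are its best known products. Many of their genes are expressed almost nowhere else. Fat has no such epithelium, and adiponectin and perilipin mark its adipocytes. Because the fat pad is attached to the duct, both tissues lie side by side.

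The 4 marker genes were each read by a 60-base probe, of which the first 30 bases are shown because the choice of arrays rests on them.
Crisp1: tattgtcctgttggcaattatcaaggaagg
Lcn5: attctcaagcatgacttaacctgtgtgaac
Adam7: aagcttagacagtgatcatgtagagcctca
Cst8: ctggaatggcgagttcaacctgttgagcaa
The array's annotation placed Crisp1 on chromosome 17, Lcn5 and Cst8 on chromosome 2, and Adam7 on chromosome 14.

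The high arrays were LFC day 1 with a marker median of 4.21, LFC week 9 with 3.46, HFC day 10 with 2.78, HF20 week 3 with 2.61, LFC day 10 with 2.03, LFC day 14 with 1.55, HF20 week 15 with 0.78, HF5 week 3 with -0.60, HFC week 15 with -0.75 and HF20 week 6 with -0.81. Just outside the upper threshold lay HFC week 9 at -2.06 and HF5 week 9 at -2.11. The low arrays ran from HF75 week 9 at -6.37 to HF20 week 12 at -9.44, and HF75 week 12 at -5.87 lay just outside. High arrays came from LFC (4 of 11), HFC (2 of 10), HF5 (1 of 6) and HF20 (3 of 6), and none of the 6 HF75 arrays was high. Low arrays came from LFC (2), HFC (3), HF20 (2) and HF75 (2).

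**Figure D1:**
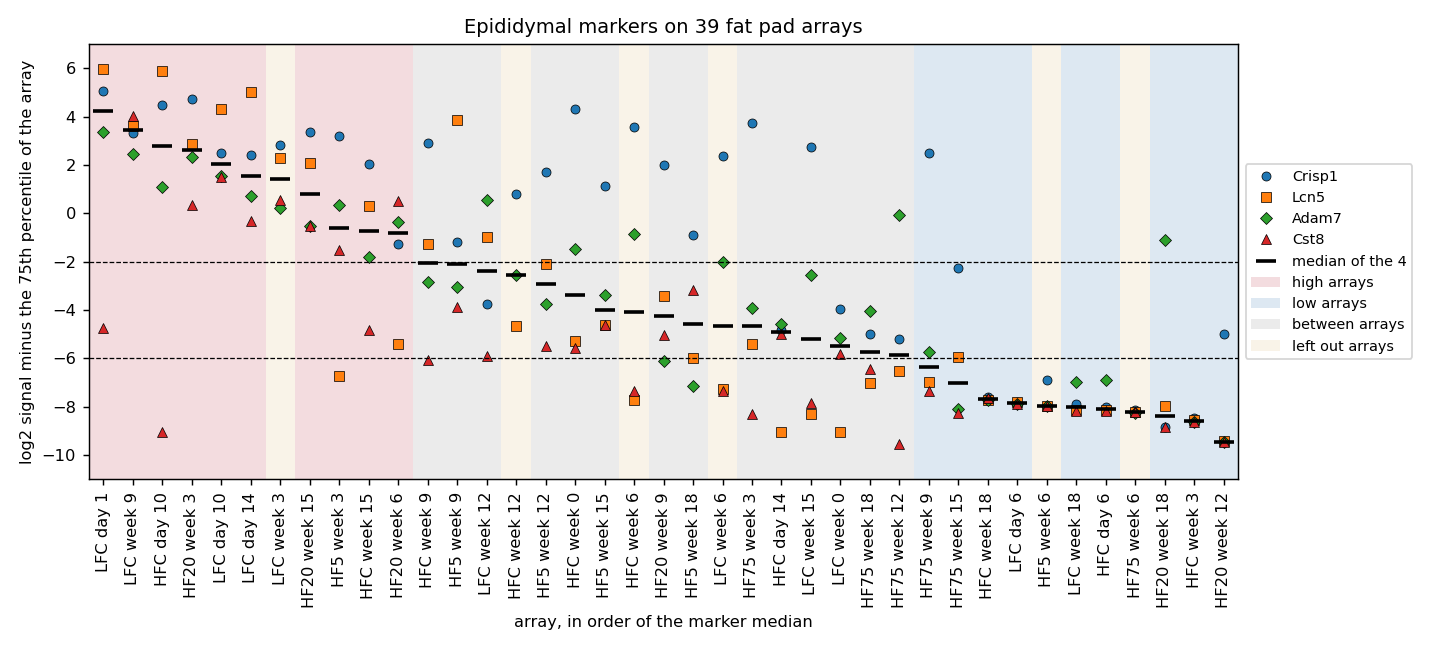
Log2 signal relative to the array's 75th percentile (vertical axis) of Crisp1, Lcn5, Adam7 and Cst8 on each of the 39 arrays (horizontal axis, ordered by the median of the 4, black bars); the shading gives the class and the dashed lines mark -2 and -6. The markers do not move as 1: HFC day 10 has Lcn5 at 5.89 and Cst8 at -9.03, and the low array HF75 week 9 has Crisp1 at 2.48.

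Fat markers were present on all arrays, but they mark any fat depot. Adipoq, which encodes adiponectin, lay between 2.79 and 6.81 on the 39 arrays, with the spot saturated on 4 high and 6 low arrays. The 13 adipocyte genes listed all had a lower mean on the high arrays, with a median difference of -0.79 beside -0.03 over all genes on the array. Fabp4 was saturated on every high and low array and gives no difference, and Lep, the leptin gene, which was saturated on none, differed by -1.61. Probes well above background made up 61.0% to 79.2% of an array among the high arrays and 61.1% to 72.7% among the low ones. Mesothelium genes, of the lining of the fat pad, had medians of -7.78 to -5.89 on the 4 left-out week 6 arrays and of -4.29 or higher on the others. The part of these differences in the results below was not tested. In a tissue sample, fewer cells of a type and less RNA per cell cannot be told apart.

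Crisp1, a sperm-coating protein of the middle and distal duct, ranged from -1.27 through a median of 3.24 to 5.06 on the 10 high arrays, and from -8.84 through -7.80 to 2.48 on the 9 low arrays. Of the 3 low arrays with Crisp1 above background, HF75 week 9 alone lay within the range of the high arrays. Lcn5, a retinoid-binding lipocalin, ranged from -6.72 through 3.25 to 5.95 on the high arrays and from -9.42 through -7.95 to -5.95 on the low arrays. It was above background on 9 high arrays and on no low array, so it was at least 476-fold higher, a bound set by the lowest signals well above background on the low arrays. Adam7, a membrane protein of the proximal duct that passes to sperm, ranged from -1.80 through 0.90 to 3.37 and, on the low arrays, from -9.46 through -7.72 to -1.10. Only HF20 week 18 among the low arrays had it above background. Cst8, a cystatin of the first segment, ranged from -9.03 through -0.41 to 4.01 on the high arrays and from -9.46 through -8.19 to -7.34 on the low arrays. It too was above background on 9 high arrays and no low array, at least 55.4-fold higher. These values chose the arrays and are a description.

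The comparison of the high with the low arrays asked which genes come with the markers. It covered 23410 genes whose probe was well above background on 4 or more of the 19 arrays, and the markers that chose the arrays are among them, so no test was made and every gene that passed had to be measurable in at least 4 arrays. Of these genes 422 (1.8%) were at least 2 log2 units higher by mean on the high arrays and 8 (0.0342%) at least 2 lower. The median difference over all genes was -0.01. Of the 422, 10 genes (0.0427% of those compared) were also higher on every high array than on any low array, and no gene was lower without overlap. Just inside the limit of 2 lay 1700013G24Rik at 2.0009, and just outside lay Cmtm2b at 1.9989. With normexp background correction, which models the background and adds an offset, 95 genes reached 2, and 76 where the lowest spots were limited.

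The 10 genes without overlap were Wfdc10, C4bp, Defb21, Rnase12, Wfdc9, Wfdc6b, Atp10b, Rprm, Npy and Crisp4. Crisp4 had the smallest mean difference of them, 3.57. Wfdc10, a WFDC protease inhibitor gene, ranged from 0.28 through a median of 2.61 to 5.90 on the high arrays and from -7.53 through -4.69 to -1.18 on the low arrays. C4bp, a complement regulator, ranged from -1.21 to 4.29 and from -8.56 to -3.30. Rnase12, of the ribonuclease A family, came closest to overlap, with its lowest high array, HF20 week 6, at -3.01 and its highest low array, HF75 week 9, at -3.08. Defb21, a beta defensin, was at or under -7.30 on the low arrays, above background on none of them and on 9 high ones, at least 53.5-fold higher. Atp10b, a phospholipid flippase, was above background on all 10 high arrays and no low array, at least 13.2-fold higher, and Rprm, a cell cycle regulator, likewise, at least 10.46-fold higher. Npy, better known as a neuropeptide, lay between -5.25 and -0.77 on the high arrays and between -8.61 and -5.31 on the low ones, and Crisp4, a proximal sperm-binding protein, between -4.81 and -1.32 and between -8.21 and -5.12.

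Many of the large mean differences belonged to secreted proteins of the duct. Gpx5, the secreted glutathione peroxidase of the epididymis, had a mean difference of 10.18, with 2 of 9 low arrays above background. Of the 422 genes 106 were above background on no low array, so that low levels near background carry no exact order. It ranged from -4.30 through 4.14 to 6.85 on the high arrays and from -9.26 through -7.04 to -2.51 on the low arrays, and HFC week 15 alone among the high arrays lay below the highest low array. The Kazal inhibitor Spink8 differed by 8.30, and the defensins Defb48 and Defb28 by 8.08 and 7.67. Of the 20 genes with the largest differences, 15 were on one of the epididymis lists, and 34 of the 50 largest. Of all 422 genes, 84 were on an epididymis list and 328 on no list of any tissue. The epididymis lists hold 137 of the 29411 genes on the array, and the 4 markers that chose the arrays are on them and among the 422. Those lists were drawn up with earlier results of these data known, and the counts are a description.

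**Figure D2:**
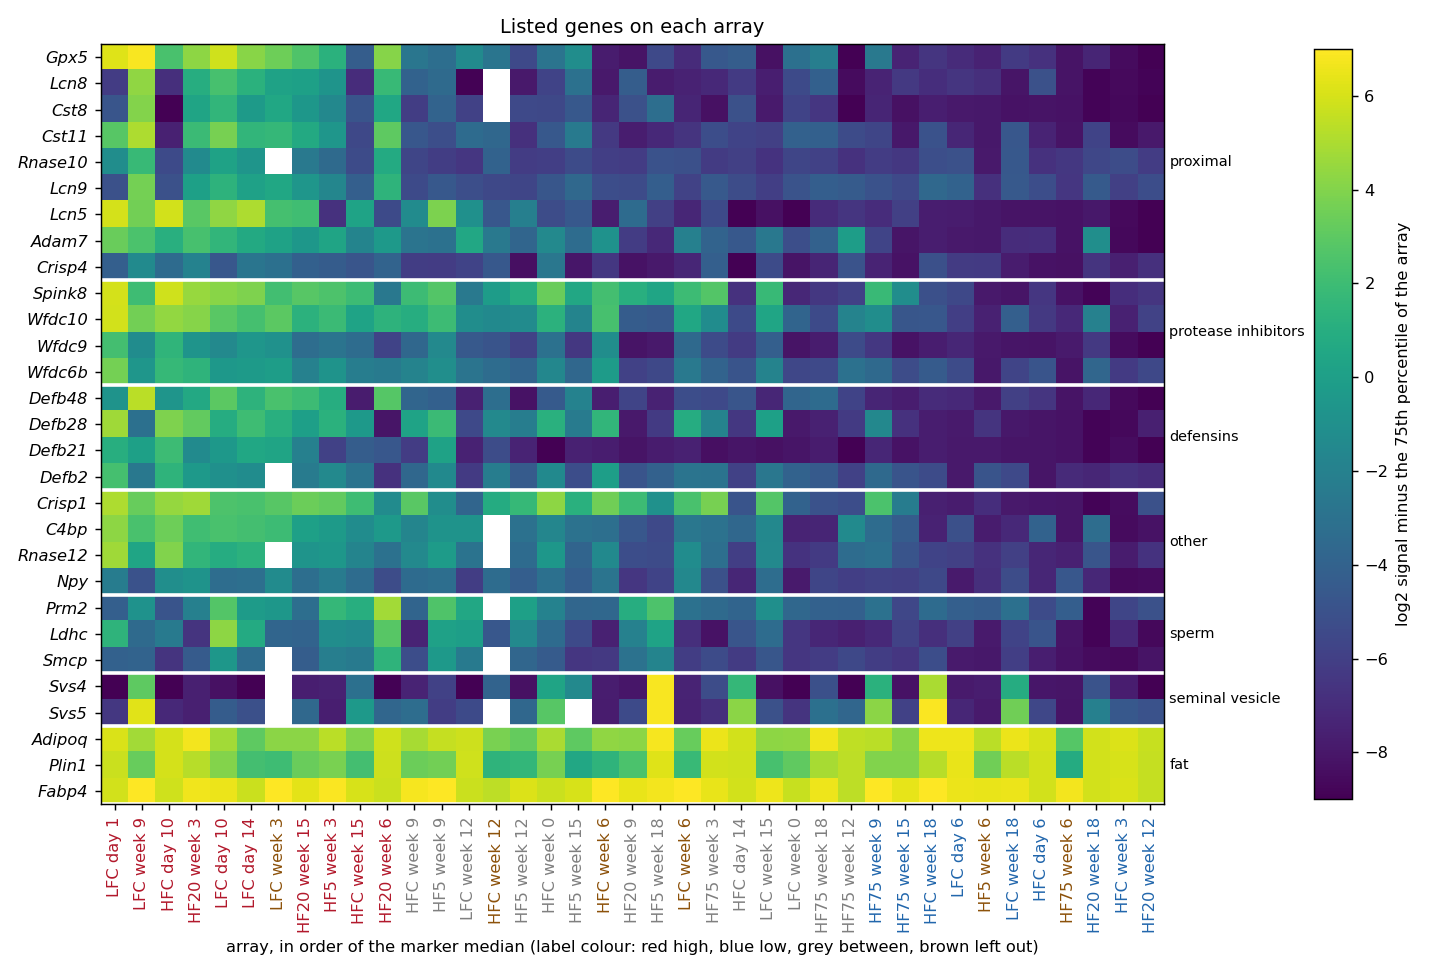
Log2 signal relative to the 75th percentile (colour) of 29 genes (rows, grouped by role) on 39 arrays (columns, ordered by the marker median from high on the left to low on the right; white, an outlier spot with no value). Each row is to be read along the arrays: Gpx5 reaches 6.85 among the high arrays and -9.26 among the low arrays, but not in strict order of the marker median. Adipoq ranges from 2.79 to 6.81, with its spot saturated on some arrays.

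By role, all 18 protease inhibitors on the array except Spink10, which did not pass the filter, were at least 2 higher, with a median of 5.00 over the 18. They included Spink8, Wfdc10, Gm46 (Serpina16 in RefSeq) at 6.78 and Spinlw1 at 4.08, the gene of eppin, which coats sperm. All 4 cystatins were at least 2 higher, from Cst9, above background on 5 high arrays and no low array and at least 4.27-fold higher, to Cst11 with a difference of 7.19. Of 8 lipocalins, 7 passed the filter and reached 2, from Lcn10 at 2.33 to Lcn5, and Lcn13 did not pass. Of the CRISP and ADAM genes 4 of 5 reached 2, and Crisp3 was above background on no high or low array. In the ribonuclease A family Rnase12, Rnase9 (5.48) and Rnase10 (3.97) reached 2, while Rnase13 had a mean of -6.51 in both groups and Rnase11 was above background on 4 high arrays and no low array, at least 1.25-fold higher.

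Of 44 beta defensin genes 37 passed the filter and 28 reached 2, with a median of 2.85 over the 44. These small cationic proteins, several of which coat sperm, differed within the family: Defb48, Defb28, Defb20 (7.32) and Defb21 led it, Defb1 differed by 5.16, and Defb3, Defb36 and Defb46 by -0.44, 0.38 and 0.07. Defensin genes are near-identical in places, and probes may share transcripts. Among enzymes Gpx5, Ces7 (5.11, Ces5a in RefSeq), Ovch2 (4.84) and Akr1b7 (3.81) reached 2 of 9 listed, and the peptidases Enpep and Mme differed by -0.82 and -0.91. Of 8 sperm-binding proteins Bsph1 (4.12) and Teddm1 reached 2, the latter above background on 7 high arrays and no low array and at least 8.09-fold higher.

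Genes that hold the epithelium itself differed less. All 15 genes of the epithelium list were higher, with a median of 2.08, and 8 reached 2, led by Cldn4 (3.46) and the cadherin gene Cdh1 (3.27). Of 4 basal cell genes 2 reached 2, the keratins Krt5 and Krt15, while Krt14 and Trp63 did not, and the list median was 1.88. Krt5 differed by 2.36, and Krt15 was above background on 7 high arrays and no low array, at least 13.4-fold higher. Of 8 clear cell genes, the cells that acidify the lumen, Atp6v1g3, a subunit of the proton pump, alone reached 2. It was above background on 8 high arrays and no low array, at least 8.17-fold higher, and the list median was 1.13. Of 9 receptors, channels and transcription factors 4 reached 2, and the list median was 1.73. Among the 4 were the transcription factor Pax8, which differed by 2.26, and the kinase Ros1, needed for the first segment to form, by 2.86. The 8 smooth muscle genes, of the wall of the duct and of vessels, were all higher with a median of 1.13, and none reached 2.

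Sperm genes were also higher, in a different order of arrays. Of the 16 genes of sperm and spermatids, 10 were at least 2 higher and the median was 2.30. Prm2, a protamine that packs sperm DNA, was 4.80 on HF20 week 6, 2.74 on LFC day 10 and 1.65 on HF5 week 3, but -4.16 on LFC day 1 and -4.85 on HFC day 10, the arrays with the highest Lcn5. It was also 2.59 on HF5 week 9 and 2.51 on HF5 week 18, both between the thresholds. Ldhc, the lactate dehydrogenase of sperm, differed by 5.84. Of 10 genes of Sertoli and Leydig cells, the somatic cells of the testis, none reached 2, and the median was 0.23. The lists of mesothelium (-0.02), skeletal muscle (0.20), macrophages (-0.20) and red blood cells (-0.05) had medians near that of all genes.

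**Figure D3:**
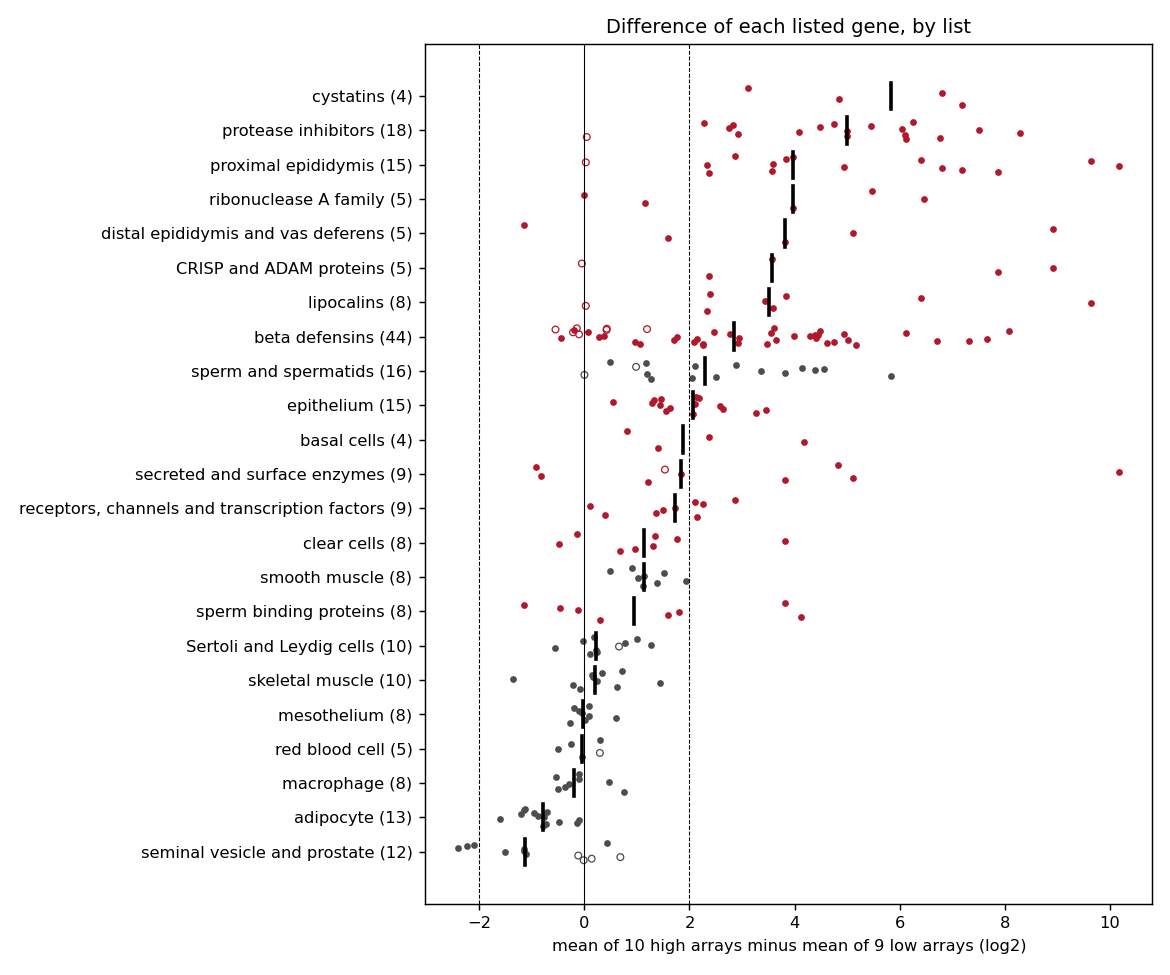
Mean of the 10 high arrays minus mean of the 9 low arrays (log2, horizontal axis) for each listed gene (points; open points did not pass the filter), by list with the number of genes on the array in parentheses; black bars are list medians, dashed lines mark 2 and -2, and red lists are those of the epididymis. Cystatins (5.83) and protease inhibitors (5.00) lie highest and adipocyte genes (-0.79) below 0.

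The likeness of the markers over the 33 arrays that the rule kept is given as Spearman correlations with no test, since all genes share the arrays and their scaling. Lcn5 correlated with Adam7 at 0.72 and with Crisp1 at 0.70, Crisp1 with Adam7 at 0.63, and Cst8 with Lcn5 at 0.55, with Adam7 at 0.51 and with Crisp1 at 0.49. Crisp1 was most like Spink8 (0.92), Serpina1f (0.92) and Defb2 (0.87) of 21935 genes above background on 10 or more of the arrays. Lcn5 was most like Spink8 (0.84), Rnase12 (0.84) and Defb42 (0.83). Adam7 was most like C4bp (0.93), Wfdc9 (0.90) and Wfdc10 (0.89). Cst8 was most like 4922502D21Rik (0.77), Smcp (0.76), a gene of sperm mitochondria, and Lcn8 (0.76), with Gpx5 at 0.74.

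LFC week 9 had Cst8 at 4.01 and Lcn8 at 4.33 together with Crisp1 at 3.30. LFC day 1 and HFC day 10 had Crisp1 at 5.06 and 4.46 and Lcn5 at 5.95 and 5.89, with Lcn8 at only -6.16 and -6.83. HF20 week 6 was the reverse, with Lcn8 at 1.76 and Gpx5 at 4.11 but Crisp1 at -1.27 and Lcn5 at -5.40. Among arrays between the thresholds, Crisp1 was above background on all 14 and reached 4.31 on HFC week 0, where Cst8 was -5.56. Lcn5 was above background on 9 of the 14 and Cst8 on 8. Cst8, Lcn8 and Gpx5 are genes of the proximal duct, and Crisp1 belongs to more distal parts. Lcn5 is also on the list of proximal genes, but on LFC day 1, HFC day 10 and HF20 week 6 it went with Crisp1 and not with Lcn8. Adam7, on that list too, was 3.37 on LFC day 1, 1.09 on HFC day 10 and -0.35 on HF20 week 6. Gpx5 was above its level on every low array on LFC day 1 and HFC day 10 as well. The proximal genes thus did not move together, and which segment the RNA came from was not tested.

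**Figure D4:**
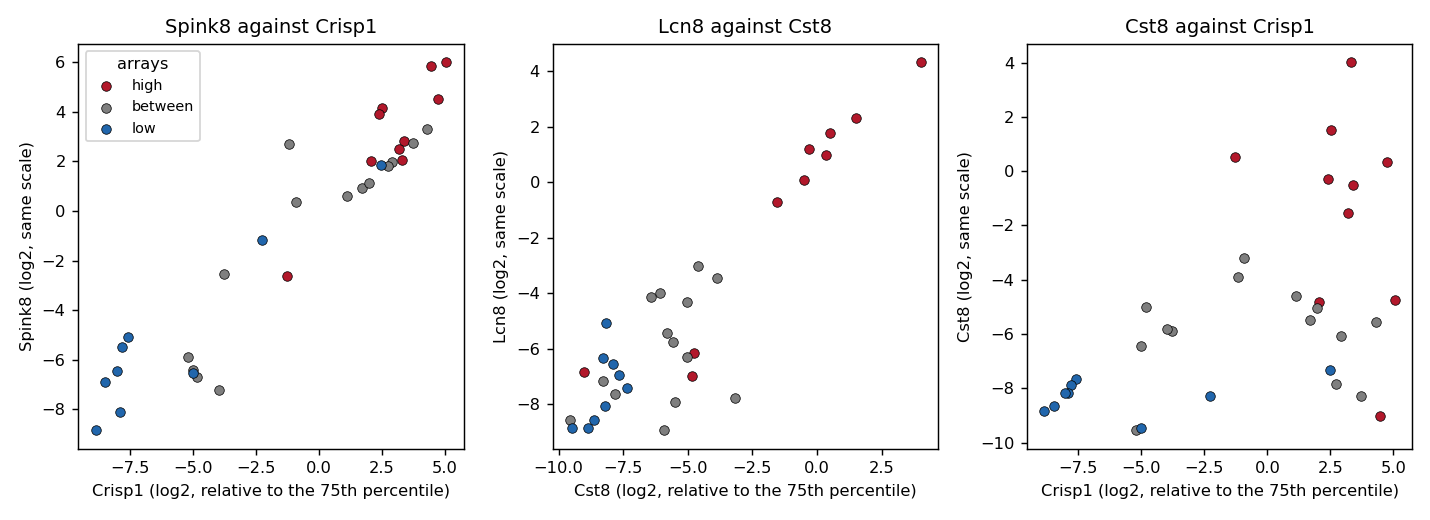
Log2 signal relative to the 75th percentile of gene pairs on the 33 arrays that the rule kept (points; red high, grey between, blue low). Spink8 follows Crisp1 (Spearman 0.92) and Lcn8 follows Cst8 (0.76), while Cst8 against Crisp1 (0.49) leaves HFC day 10 with Crisp1 at 4.46 and Cst8 at -9.03.

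The differences were also present within scan dates that held both classes. At week 3, where HF20 and HF5 were high and HFC low, all 422 genes were higher, 352 of them by 2 or more, beside 10.3% of all genes at that size. At week 15, with HFC and HF20 against HF75, 364 were higher and 176 of them by 2 or more, beside 7.32% of all genes. At week 9, with LFC against HF75, 279 were higher and 134 of them by 2 or more, beside 1.95%. The 10 genes without overlap were higher in all 3. HF20 week 15 and HF75 week 15 shared a slide, and there 347 of the 422 were higher, Gpx5 by 10.1. Within week 9, Crisp1 differed by 0.82 only, as HF75 week 9 also had it. These arrays chose the genes, so the counts are a description.

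The higher genes, the markers among them, lay in clusters, and the rule did not use gene position. Of 353 with a chromosome in the array's annotation, 59 (16.7%) were on chromosome 2, beside 7.82% of all compared genes. In the gene order of GRCm38.p6, 84 of 319 placed genes (26.3%) had another of the 422 as the next compared gene, beside 3.61% of all compared genes. The longest run was of 11 genes on chromosome 2, from Wfdc6a to Gm14316 and including Wfdc9 and Wfdc10. Other runs held Defb1 to Defb35 (7 genes) and Defb40 to Defb12 (5) on chromosome 8, Defb48 to Defb42 (5) on chromosome 14, and Lcn8, Lcn5, Lcn6 and Lcn10 on chromosome 2. Of the markers, Lcn5 lies in the last of these, and Cst8 and Crisp1 lie in runs of 3. Probes of neighbours in 1 family, such as the defensins, may share transcripts, so that neighbours need not be separate observations.

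The 14 arrays between the thresholds were not used to choose genes, and on them limma tested whether genes follow the marker median. Of 21811 genes none passed an adjusted p of 0.05, and 1356 had an unadjusted p below 0.05, of which 867 (3.98%) had a positive and 489 (2.24%) a negative slope. Of the 422 higher genes 341 could be tested, 213 had a positive slope and 74 of them an unadjusted p below 0.05. The 4 markers, whose own median the slope is taken on, are among the 21811, the 341 and the 213. Of the markers, Lcn5 alone (slope 2.36) had an unadjusted p below 0.05. The 16 protease inhibitors tested all had positive slopes with a median of 0.84 log2 per log2 of the marker median, and 11 had an unadjusted p below 0.05. Spint4, an inhibitor of the Kunitz family, had a slope of 1.63 ± 0.41 (SE, adjusted p = 0.766) and Wfdc10 one of 1.20 ± 0.38 (adjusted p = 0.766). The 9 proximal genes other than markers had a median of 0.11, and none had an unadjusted p below 0.05. That count of 74 was 23 without the HF5 week 9 array and 47 without the LFC week 0 array. HF5 week 9 had the lowest 75th percentile of the 14 arrays, 119.5 beside a median of 821. It also had the fewest probes well above background, 53.7% beside a median of 67.2%. The lower the 75th percentile, the higher a signal near background lies on this scale. The part of this array in the slopes of the inhibitors as a set was not tested. The total of 1356 was 887 without HF5 week 9 and 3552 without LFC week 12.

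HFC against LFC, the main question of the diet design, was tested at 10 time points with the time point as a block. None of 24828 genes passed an adjusted p of 0.05, and 741 had an unadjusted p below 0.05, or 1292 without week 12. The 422 genes were chosen on arrays that this comparison shares, with 4 high and 2 low arrays from LFC and 2 high and 3 low from HFC, so that lower values on HFC come with the choice and support nothing; the comparisons that follow share such arrays too. All 14 proximal genes had negative estimates, with a median of -2.01, and 6 of them an unadjusted p below 0.05, beside 1.72% of all genes in that direction and 1.26% in the other. The markers Cst8, Lcn5 and Adam7, whose values chose the arrays, are among these 14, so that the count supports nothing. Among other tissues, all 8 mesothelium genes had positive estimates, with a median of 0.95 and 5 with an unadjusted p below 0.05, and so had all 10 genes of seminal vesicle and prostate, with a median of 0.89 and none below 0.05. Their part in the result was not tested. Lcn6, a lipocalin, was -2.23 ± 1.25 (SD, n = 10) on HFC and 0.30 ± 2.44 (n = 10) on LFC, a difference of -2.54 ± 0.79 (SE, adjusted p = 0.997), lower on HFC at 8 of 10 time points. Of the 422 genes 50 of the 420 tested had a positive estimate, and 35 had a negative one with an unadjusted p below 0.05. Cst11, the cystatin, differed by -3.89 ± 1.39 (SE, adjusted p = 0.997) and was lower on HFC at 8 of 10 time points. Crisp1 differed by -0.35 ± 1.53 (SE, adjusted p = 0.997). The count of 35 was 17 without day 10, 18 without day 14, 17 without week 3, which holds the left-out LFC array, and 18 without week 9. It was 17 with the scan date as the block, 7 with normexp, 62 with the limited version and 5 with probes above background on every array, where 45 of the 422 could be tested.

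**Figure D5:**
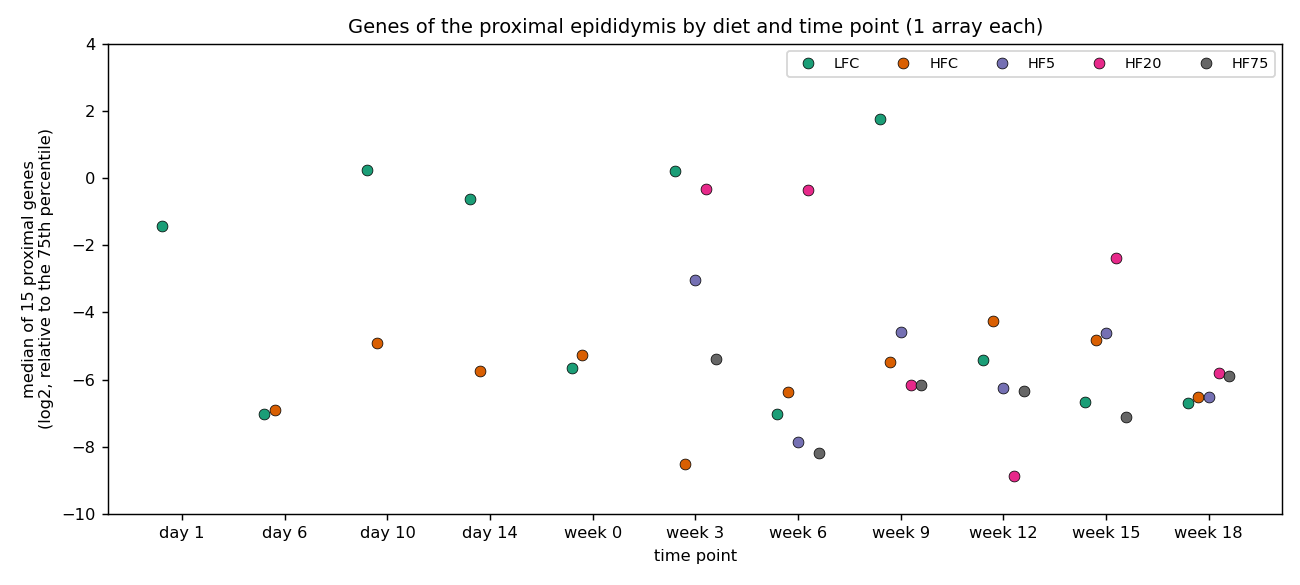
Median over 15 genes of the proximal epididymis (log2 relative to the 75th percentile, vertical axis) at each time point (horizontal axis), with 1 array for each diet (colours). LFC ranges from -7.04 at day 6 to 1.75 at week 9, and 0 of 24828 genes passed in the test of HFC against LFC. The markers Cst8, Lcn5 and Adam7 are among the 15 genes.

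The 3 doses of KAL-1 against HFC, tested over weeks 3 to 18 in 24661 genes, also gave no gene past an adjusted p of 0.05. At 5 µg 1.01% of genes were higher and 2.17% lower at an unadjusted p below 0.05, at 20 µg 1.31% and 4.16%, and at 75 µg 0.272% and 1.2%, or 782, 1350 and 364 genes. Of 412 of the higher genes tested, 339 had a positive estimate at 5 µg, 201 at 20 µg and 101 at 75 µg. Without week 3, where HFC was low and HF5 and HF20 high, these were 161, 124 and 50 of 399. The median of the 14 proximal genes tested, with the markers Cst8, Lcn5 and Adam7 among them, was 0.03 at 5 µg, 1.63 at 20 µg and -0.67 at 75 µg. At 20 µg Lcn8 differed by 4.41 ± 1.89 (SE, adjusted p = 0.741) and was higher than HFC at 3 of 5 time points, with no HFC value at week 12, where the spot was an outlier. At 75 µg Ces7, a carboxylesterase of the distal duct, differed by -3.11 ± 1.11 (SE, adjusted p = 1.00) and was lower at 5 of 6 time points. The doses share the HFC arrays.

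Weeks 3 to 18 against the earlier time points, over LFC and HFC, gave 241 higher (0.963%) and 386 lower genes (1.54%) of 25026. At an unadjusted p below 0.05 the shares were 8.94% and 10.1%. Of the 422 genes none was higher and 8 were lower, a share near the 1.54% of all genes, so the count is not particular to the 422. The 8 were Angpt4, Pax8, Cdh16, Aqp9, Cldn7, 9130230L23Rik, Meig1 and Tnnt2. Cdh16, a cadherin of kidney and duct epithelia, fell by 4.26 ± 0.95 (SE, adjusted p = 0.0175), and Pax8 fell by 2.41 ± 0.53 (SE, adjusted p = 0.0172), from -4.64 ± 1.28 (SD, n = 9) to -7.08 ± 1.12 (n = 10), with outlier spots left out on LFC week 3 and HFC week 12. Among the epithelium genes Cldn7, a tight junction protein, fell by 2.78 ± 0.68 (SE, adjusted p = 0.0284) and Krt8 by 2.34 ± 0.56 (adjusted p = 0.0257). All 8 mesothelium genes, of another epithelium with keratins, had negative estimates, with a median of -1.28 and 2 with an unadjusted p below 0.05, and 8 of 10 skeletal muscle genes had positive ones, with a median of 0.90 and 5 below 0.05. Their part in the result was not tested. Gpx5 differed by -2.97 ± 1.95 (SE, adjusted p = 0.410) and Crisp1 by 0.11 ± 2.14 (adjusted p = 0.983). Time point and scan period cannot be told apart here, and with week 0 alone as the early time point no gene passed, with 870 at an unadjusted p below 0.05. Of the 422 genes none was called lower without day 10, day 14 or week 18, 2 without day 6, 3 without day 1, 4 without week 15 and 24 without week 0, which also gave 12 higher.

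Some titles of weeks 3 and 18 carry a T or Ts that the labels do not define, and these 5 arrays were compared with the 5 others of those weeks with the time point as a block. None of 21153 genes passed an adjusted p of 0.05, and 1255 had an unadjusted p below 0.05, a total that was 78 without HF20 week 18, 806 without LFC week 18, 2024 without LFC week 3 and 2619 without HF5 week 3. Of the 422 genes 279 could be tested, 250 had positive estimates, and 36 an unadjusted p below 0.05 in that direction, beside 4.44% of all genes and 1.49% in the other direction. This count was 10 without HF20 week 18, the only week 18 array with no mark, 20 without HF5 week 18, 23 without LFC week 18, 58 without HF20 week 3 and 107 without HF5 week 3. Ovch2, a protease-like gene of the epididymis, differed by 4.45 ± 1.17 (SE, adjusted p = 0.796) over 9 arrays, as 1 had an outlier spot. All 8 genes of seminal vesicle and prostate tested had positive estimates (median 3.29) and all 11 sperm genes (1.40), while 7 of 8 mesothelium genes had negative ones (-2.56), 4 with an unadjusted p below 0.05. Their part in the result was not tested.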

How the data were processed

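RNA of epididymal adipose tissue was labelled with Cy3 on 39 one-colour Agilent arrays. Per the file headers the authors extracted intensity values with Feature Extraction 10.5.1.1, while the submitters' processing notes name Agilent Feature Extraction 9.1. The authors' deposited log2 table, in which LFC at each time point is the baseline, was an alternative only. Here log2(gProcessedSignal) minus each array's 75th percentile was taken, outlier spots were left out, spots of 1 probe were averaged, and the brightest of a gene's probes stood for it (40628 probes, 29411 names, 19290 matched to RefSeq). Tests used limma 3.58.1 with Benjamini-Hochberg adjustment over all genes with a probe well above background on 4 or more compared arrays, and were tested on simulated data. P-values measure the spread between arrays. The markers, lists and arrays were chosen with earlier results of these data known. The naming rule took the markers, up to 20 genes higher and 5 lower without overlap (10 and 0 existed), up to 4 per list and, per comparison, up to 3 listed genes with the smallest p and up to 5 called per direction. Not every gene that the rule took is given with its estimate, as with Ggt1 in weeks 3 to 18 and Teddm1 at 20 µg. Other genes were named after their values were seen. The number of arrays limits the precision. Alternatives were normexp (offset 50), quantile and median scaling, outlier spots kept, other filters, other thresholds and leaving out arrays.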

Additional observations from a re-analysis of the deposited data

Results flagged for a closer look

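The left-out arrays were in no comparison of high with low, and 4 of them had a marker median above the highest low array (-6.37): LFC week 3 with 1.43, HFC week 12 with -2.55, HFC week 6 with -4.09 and LFC week 6 with -4.65. LFC week 3 and HFC week 12 also had 97.1% and 94.5% of probes well above background and 16431 and 10531 outlier spots, against at most 387 outlier spots on a high array. Whether those values bear on their marker signal was not tested.

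Among 28 sets of values checked for a single array far from the rest (the markers and the 10 genes without overlap, on high and on low arrays), of which chance gives about 1.4, 2 held such an array. Crisp1 was -1.27 on HF20 week 6, apart from the other high arrays. Adam7 was -1.10 on HF20 week 18, apart from the other low arrays.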

How the results depend on the processing

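The counts depend on how low signals are treated. On 9 arrays, 4 of them high and none low, the planned normexp fit put the mean background between -1125 and -136 although at most 0.108% of spots lay below 0, because a few spots had a very bright local background. A version with the lowest 0.1% of spots limited (means from -8.78 to 22.0) was added after seeing the data. For genes at least 2 higher (422), normexp gave 95, the limited version 76, above background on every array 45, thresholds of -3 and -5 223, and a smallest difference of 1 or 3 gave 1853 or 136. The 10 without overlap were 10 with normexp, of which 3 were among those named, 8 with the left-out arrays kept (without Npy and Rprm), 3 with the limited version, 1 with every array above background and 0 with the other thresholds. For the 8 lower, normexp gave 2, the limited version 3, median scaling 17, every array above background 4, the other thresholds 2, the left-out arrays kept 1, and differences of 1 or 3 416 or 0. Leaving out single high arrays gave 325 to 537, 10 to 25, and 4 to 19, and no gene lower without overlap. Low arrays were not left out in turn. Dropping an array cannot make the groups overlap, so the lower end of 10 to 25 was nearly fixed in advance and shows no stability. The slope test gave 9955 and 2655 genes with normexp and 1 with the limited version, and 0 to 1 in each direction without single arrays. Weeks 3 to 18 (241 higher, 386 lower) gave 3 and 26 with normexp, 434 higher with the limited version, 143 and 136 higher with quantile and median scaling, 213 lower with outlier spots kept, 394 higher without LFC week 3 and HFC week 12, 0 and 0 with week 0 alone, and 75 to 680 and 128 to 1145 without single time points. The title mark gave 1132 and 216 at week 18 alone, where the only array without it, HF20, was assumed to vary like the others, so that the counts describe that array. Reversed was HF5 against HFC for Defb34 (0.021 with normexp, 0.24 limited), which was -1.81 to -0.93 without single time points. Reversed too was Rnase13 (0.0051 and 0.25), which was -1.28 to -0.46 without them. Weeks 3 to 18 reversed for Aqp9 (0.026) and Pax8 (0.028) with normexp. No pairing by animal was possible because the replicate numbers here follow accession order and name no shared animal. Time point was the block in the diet, KAL-1 and title mark fits, so that arrays were compared within time points there.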

Other observations

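Genes of the seminal vesicle did not follow the epididymal markers. Svs5, a seminal vesicle secretory protein, was 6.92 on HFC week 18, 6.87 on HF5 week 18, 6.29 on LFC week 9, 4.23 on HF75 week 9, 4.19 on HFC day 14 and 3.51 on LFC week 18. Of these only LFC week 9 was a high array and 3 were low arrays. The other high arrays had Svs5 between -7.65 and -0.36. Of the 12 genes of seminal vesicle and prostate 3, Svs4, Svs5 and Svs6, were at least 2 lower by mean on the high arrays, with overlapping groups, and the list median was -1.12.

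The largest lower means belonged to Slc4a7, a bicarbonate transporter, at -2.93 and S100b, a calcium-binding protein, at -2.52. S100b ranged from -0.35 to 3.39 on the high arrays and from 2.22 to 6.04 on the low arrays, and Slc4a7 from -2.39 to 5.02 and from -0.17 to 6.56, so that both groups overlapped. Mogat1, an acyltransferase of triglyceride synthesis, differed by -2.09.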
